A study of Mus musculus with 28 samples.

Results

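The genes described here build the hyaluronan and chondroitin sulphate matrix of mesenchyme and cartilage. They are the hyaluronan synthases Has1, Has2 and Has3, the proteoglycan versican (Vcan), the hyaluronan receptor Cd44, and the chondroitin sulphate enzymes Xylt1, Chsy1, Chst11, Chst3 and Papss2. All 10 were taken by symbol from the raw count table of 54429 gene identifiers and followed in each of the 8 groups of the study. RNA sequencing was done on O9-1 cells, a mouse cranial neural crest line, in 28 libraries. Each of 4 culture states was held at 21% O2 (4 libraries each) or at 0.5% O2 (3 libraries each). All cultures had 5% CO2. Proliferating cells were kept in DMEM conditioned by STO feeder cells, with 15% FCS, 0.1 mM non-essential amino acids, 55 µM beta-mercaptoethanol, 25 ng/ml bFGF and 5 ng/ml LIF. Chondrocyte cultures had 3 days of osteoblast medium and then 7 days as micromass on matrigel in alpha-MEM with 5% FCS, insulin-transferrin-selenium, 0.1 µM dexamethasone, 10 ng/ml TGF-beta3 and 50 ng/ml BMP-2. Osteoblast cultures had 10 days in alpha-MEM with 10% FCS, 10 mM beta-glycerophosphate, 0.1 µM dexamethasone and 100 ng/ml BMP-2. Smooth muscle cultures had 3 days in DMEM with 10% FCS. The medium, the time in culture and the labelled cell type change together between states, so their parts cannot be told apart. All libraries come from 1 cell line and no label says that replicates were separate cultures, so p-values measure the spread between these samples, which may be technical.

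Hyaluronan is an unsulphated sugar polymer that the Has enzymes assemble at the plasma membrane and extrude from the cell. Versican binds it through a link domain and carries chondroitin sulphate chains, which start with a xylose that Xylt1 places on the core protein, grow by enzymes such as Chsy1 and are sulphated by Chst11 at the 4-position and by Chst3 at the 6-position of N-acetylgalactosamine. Papss2 makes PAPS, the sulphate donor for those reactions. The hyaluronan and versican matrix is known for its place around migrating neural crest cells, and sulphated chondroitin chains on aggrecan are the main charged component of cartilage.

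Library totals ran from 19869271 to 64693346 counts. Levels are given as CPM, the usual count relative to the library total, after TMM scaling, a scaling that sets the bulk of genes equal between libraries. Hypoxia response genes (8 genes, among them Vegfa and Car9) summed to between 390.3 and 2224 CPM in the libraries at 21% O2. At 0.5% O2 they summed to 34791 to 37522 CPM in smooth muscle cultures and to 5127 to 9059.7 CPM in the other states. Cartilage markers (7 genes) summed to between 3118 and 9318 CPM in chondrocyte libraries at 21% O2 and to between 894 and 1357 CPM at 0.5% O2, and Matn1 was at or near 0 counts in all groups. Bone markers (6 genes) were higher in the cultures labelled chondrocyte than in those labelled osteoblast, with mean sums of 40345 and 46736 CPM beside 6654 and 10139 CPM at 21% and 0.5% O2, most of it Col1a1. Smooth muscle markers (4 genes) averaged 3554 CPM in smooth muscle cultures at 21% O2, 3542 CPM in osteoblast cultures at 21% O2 and 34.9 CPM in smooth muscle cultures at 0.5% O2. In the last group Alpl, Ibsp, Bglap, Col9a1, Matn1 and Hapln1 had no counts, the leukocyte marker Cd68 averaged 35.0 CPM (0.644 CPM in smooth muscle cultures at 21% O2) while the other 3 of that list were at 0.541 (Csf1r), 0.0926 (Ptprc) and 0 CPM (Itgam), the mitochondrial ribosomal RNAs mt-Rnr1 and mt-Rnr2 took between 11.6% and 13.3% of the counts (at most 0.0889% elsewhere), and the TMM factors were 0.505 to 0.533 (0.901 to 1.289 elsewhere). Scaling by library size alone moved the median of all genes by -1.37 on the log2 scale in the comparison of these 3 libraries with smooth muscle cultures at 21% O2, so the changes reported for them are relative to that median. Osteoblast replicate 4 at 21% O2 also stood apart for several of the genes. Neural crest markers (5 genes) summed to between 204 and 594 CPM with Sox10 at 0 counts in 7 of the 8 groups, and endothelial and epithelial markers (4 genes each) to at most 7.62 and 11.5 CPM. What these differences add to the results was not tested. In bulk RNA, fewer cells of a type and less RNA per cell cannot be told apart.

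**Figure D1:**
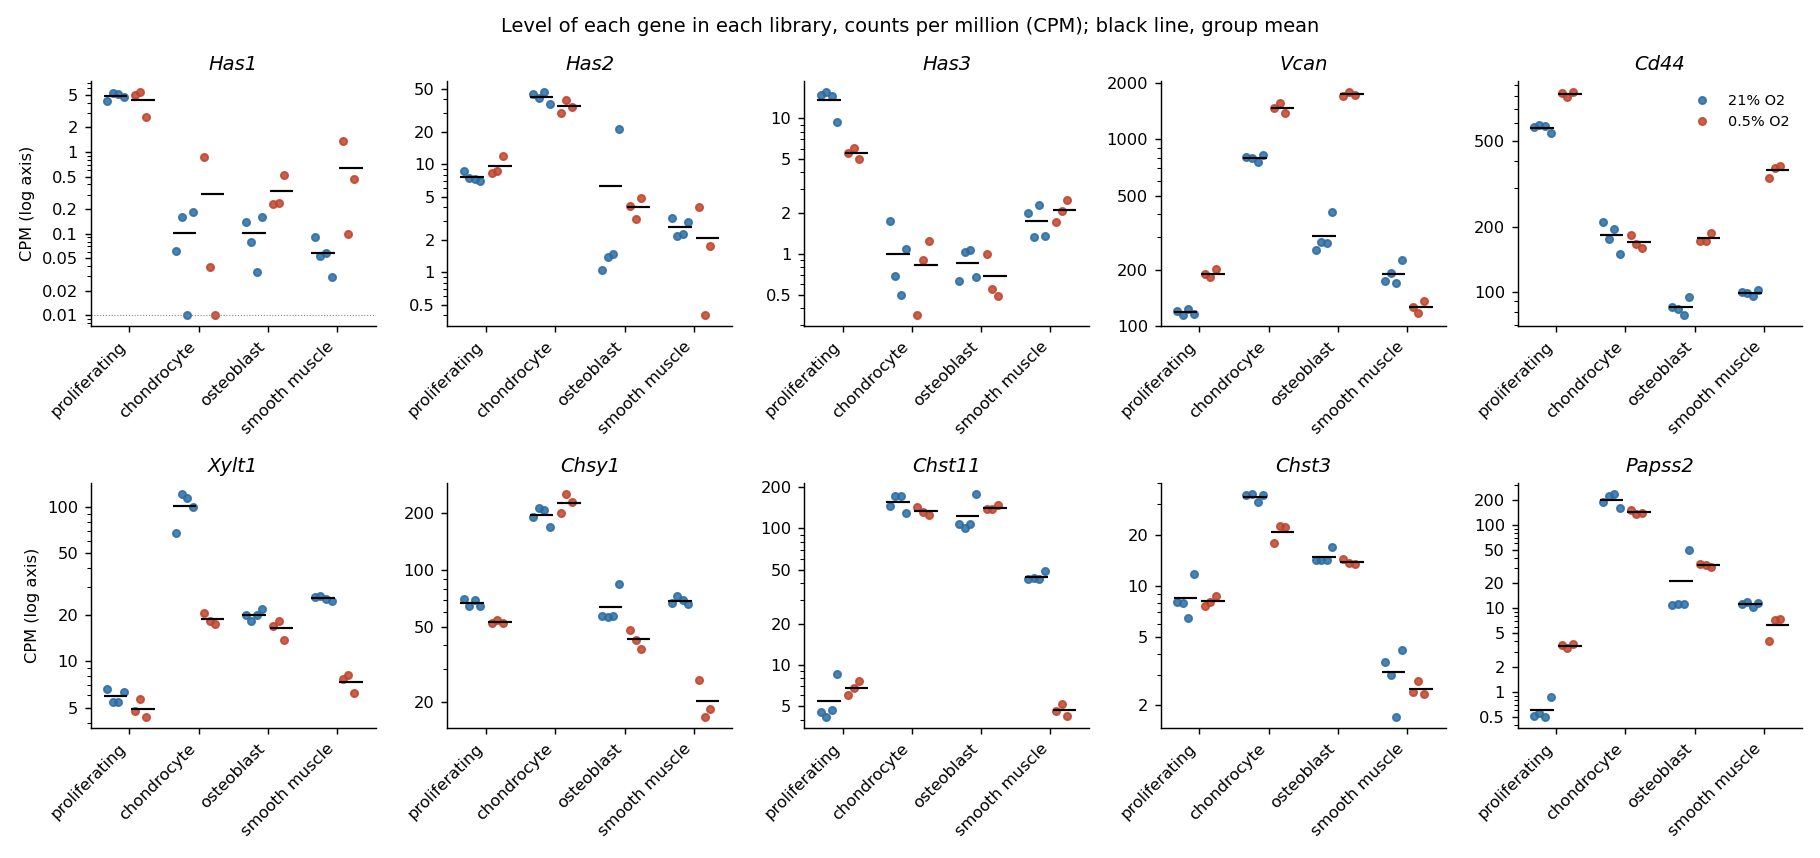
Level of each of the 10 genes in each library (CPM, log axis) by culture state, at 21% O2 (blue) and 0.5% O2 (red); black lines are group means, and libraries without a Has1 count sit on a dotted line below the lowest level. Papss2 lies between 0.497 and 0.875 CPM in proliferating cells at 21% O2 and between 160.2 and 234 CPM in chondrocyte cultures at 21% O2.

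The shares of the hyaluronan synthases differed between states. Has3 had the highest mean of them per length of exon in proliferating cells at 21% O2, close to Has2, and Has2 led in proliferating cells at 0.5% O2 and made up nearly all in chondrocyte cultures. Per kilobase of exon, Has2 made up 36.2% ± 3.58 (SD, n = 4) of the summed Has level in proliferating cells at 21% O2, beside 42.4% for Has3 and 21.5% for Has1. In chondrocyte cultures Has2 made up 98.2% ± 0.891 (SD, n = 4) at 21% O2 and 97.5% at 0.5% O2. Single libraries had Has2 between 32.5% and 39.7% in proliferating cells at 21% O2 and at least 96.6% in the 7 chondrocyte libraries. Has3 led in 3 of those proliferating libraries, and in replicate 4 Has2, at 39.7%, was above Has3, at 35.4%. In proliferating cells at 0.5% O2 Has2 made up 55.4% (49.2% to 67.3%) and Has3 21.1%. Has2 was also the largest share in osteoblast cultures, with means of 73.5% at 21% O2 (64.6% to 66.5% without replicate 4, which had 97.3%) and 83.9% at 0.5% O2, and in smooth muscle cultures at 21% O2, with 68.3%. In smooth muscle cultures at 0.5% O2 it ran from 21.2% to 62.7%. The summed Has level was 5.01 ± 0.563 CPM per kb (SD, n = 4) in proliferating cells and 10.2 ± 1.06 in chondrocyte cultures at 21% O2. Smooth muscle cultures had 0.910 ± 0.147 CPM per kb (SD, n = 4) at 21% O2 and 0.960 ± 0.542 (SD, n = 3) at 0.5% O2. These overlapped after TMM scaling but not by library size alone (0.939 to 1.39 and 0.224 to 0.812 CPM per kb). Osteoblast cultures at 21% O2 had a mean of 1.64, but only through replicate 4 at 5.15: the other 3 libraries, at 0.377 to 0.530, lay below all 4 smooth muscle libraries at 21% O2 (0.729 to 1.09).

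**Figure D2:**
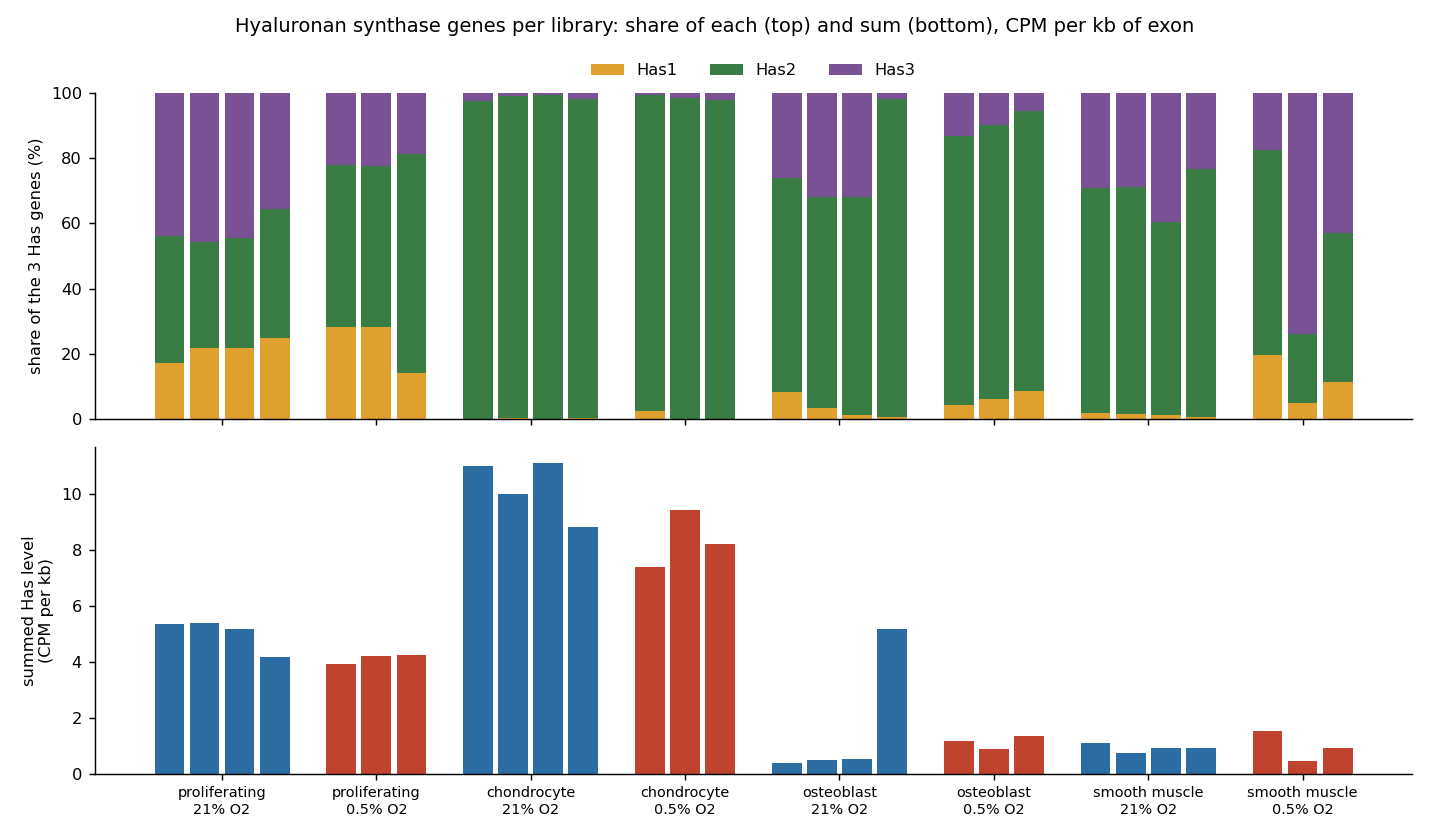
Share of Has1, Has2 and Has3 in their summed level per library (top, percent) and that sum (bottom, CPM per kb of exon; blue 21% O2, red 0.5% O2). Has2 fills at least 96.6% of the bar in every chondrocyte library, and the last osteoblast bar at 21% O2 stands at 5.15 CPM per kb beside 0.377 to 0.530 in the other 3.

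Has2 (chromosome 15, 56665627 to 56694539, minus strand, GRCm38) encodes the synthase that supplies most hyaluronan in the embryo. Its levels in chondrocyte cultures were 45.3, 41.6, 46.6 and 36.5 CPM at 21% O2 and 30.2, 39.3 and 33.9 CPM at 0.5% O2. Proliferating cells had 8.74, 7.42, 7.39 and 7.04 CPM at 21% O2 and 8.26, 8.76 and 12.0 CPM at 0.5% O2. The chondrocyte libraries lay above every other library of the study, and the ranges at the 2 oxygen levels overlapped in both states. Has2 rose in chondrocyte cultures against proliferating cells by a log2 fold change of 2.55 (SE 0.10, edgeR quasi-likelihood test, adjusted p = 5.59e-10) at 21% O2 and of 1.82 (SE 0.15, adjusted p = 3.47e-07) at 0.5% O2. The rise was smaller at 0.5% O2, with a difference of -0.70 (SE 0.18, adjusted p = 0.00501). In one fit over all 28 libraries that difference had an adjusted p of 0.629. Smooth muscle cultures had 3.18, 2.15, 2.26 and 2.94 CPM at 21% O2 and 4.05, 0.399 and 1.76 CPM at 0.5% O2, below proliferating cells at each oxygen level (log2 fold changes of -1.49, adjusted p = 3.13e-07, and -2.04, adjusted p = 0.00248). At 0.5% O2 the value was -3.01 (adjusted p = 9.61e-05) without smooth muscle replicate 1. Between the oxygen levels Has2 in smooth muscle cultures did not pass the test (log2 fold change -0.24, adjusted p = 0.661), but was called lower under both other scalings: -1.59 (adjusted p = 0.00827) by library size alone and -1.39 (adjusted p = 0.0169) by library size without mitochondrial genes and Rn7sk. Under TMM that value turned to 0.20 without replicate 2 at 0.5% O2 and passed the test at -1.21 (adjusted p = 0.0301) without replicate 1. In chondrocyte cultures Has2 did not pass the test between the oxygen levels (log2 fold change -0.31, SE 0.11, adjusted p = 0.0627), and passed it without replicate 4 at 21% O2 (adjusted p = 0.0182) or replicate 2 at 0.5% O2 (adjusted p = 0.0338).

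Has2 in osteoblast cultures at 21% O2 hung on 1 library. The 4 libraries had 1.05, 1.38, 1.49 and 21.2 CPM, and those at 0.5% O2 had 4.10, 3.09 and 4.89 CPM. With replicate 4 in the fit, osteoblast cultures at 21% O2 did not pass the test against proliferating cells (log2 fold change -0.21, SE 0.87, adjusted p = 0.833). Without it the log2 fold change was -2.54 (SE 0.17, adjusted p = 1.22e-08). The comparison of 0.5% with 21% O2 turned its direction in the same way, from -0.66 (adjusted p = 0.658) to 1.62 (SE 0.25, adjusted p = 8.58e-05). At 0.5% O2 osteoblast cultures were below proliferating cells by a log2 fold change of -1.27 (SE 0.20, adjusted p = 3.14e-05), which had an adjusted p of 0.139 in one fit over all 28 libraries. The antisense gene Has2os, which shares 182 exon bases with Has2 on the other strand, averaged 0.220 CPM in proliferating cells at 21% O2, 2.16 CPM in chondrocyte cultures at 21% O2 and 3.61 CPM in smooth muscle cultures at 0.5% O2. By library size alone the last 2 were 2.09 and 1.87 CPM, so their order depends on the scaling. The Has2 libraries of smooth muscle cultures at 0.5% O2, at 0.399 to 4.05 CPM, spanned the 3 osteoblast libraries at 21% O2 other than replicate 4. Whether reads were counted by strand is not given in the sources used here, so reads in the shared bases cannot be told apart.

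Has3 (chromosome 8, 106870242 to 106884566, plus strand) and Has1 (chromosome 17, 17843323 to 17855205, minus strand) encode the other synthases, and both were at their highest in proliferating cells. Has3 had 14.9, 15.6, 14.7 and 9.45 CPM in proliferating cells at 21% O2 and 5.56, 6.03 and 5.03 CPM at 0.5% O2, with no overlap. It fell at 0.5% O2 by 1.25 on the log2 scale (SE 0.16, adjusted p = 1.23e-05), the only synthase called lower at low oxygen in these cells. In the differentiated groups Has3 lay between 0.354 and 2.50 CPM in all 21 libraries. Its log2 fold changes against proliferating cells at 21% O2 were -3.65 in chondrocyte, -3.95 in osteoblast and -2.91 in smooth muscle cultures, with adjusted p of at most 1e-06. Has3 shares 352 exon bases with Chtf8 on the other strand, and 4.79% of its 50-base words occur in that gene too.

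Has1 had 4.17, 5.32, 5.10 and 4.69 CPM in proliferating cells at 21% O2 and 4.97, 5.39 and 2.67 CPM at 0.5% O2. In chondrocyte, osteoblast and smooth muscle cultures at 21% O2 it averaged 0.101, 0.103 and 0.0582 CPM, which is between 0 and 5 counts in a library. Its log2 fold changes against proliferating cells were -5.50, -5.43 and -6.26, with adjusted p of at most 1.56e-07. At 0.5% O2 the same changes were -3.77 (adjusted p = 0.0121), -3.68 and -2.55, and in chondrocyte cultures 27 of the 28 Has1 counts lay in replicate 1. Without that library the fitted chondrocyte change was -7.61 (adjusted p = 2.11e-09), resting on 1 count, and without smooth muscle replicate 1 the smooth muscle change was -3.77 (adjusted p = 0.000295). Without a filter on low counts the adjusted p of that chondrocyte change was 0.0511. Has1 was too low to be tested between the oxygen levels in differentiated cultures and between chondrocyte and osteoblast cultures.

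Versican (chromosome 13, 89655312 to 89742509, minus strand) rose in every differentiated state at 21% O2, and was higher at 0.5% than at 21% O2 in 3 of the 4 states. Proliferating cells had 120.2, 114, 123 and 116 CPM at 21% O2 and 190.0, 182 and 201 CPM at 0.5% O2. Chondrocyte cultures had 809, 795, 754 and 825 CPM at 21% O2 and 1467, 1568 and 1384 CPM at 0.5% O2. Osteoblast cultures had 254, 283, 277 and 407 CPM at 21% O2 and 1704, 1792 and 1734 CPM at 0.5% O2. The oxygen levels did not overlap in any of these states. The order of the groups therefore changed with oxygen: chondrocyte cultures were above osteoblast cultures at 21% O2 (log2 fold change 1.36, SE 0.14, adjusted p = 3.07e-05) and below them at 0.5% O2 (log2 fold change -0.24, SE 0.09, adjusted p = 0.0309). The small difference at 0.5% O2 did not pass the test without chondrocyte replicate 3 (adjusted p = 0.162) or without osteoblast replicate 2 (adjusted p = 0.0938), nor in one fit over all 28 libraries (adjusted p = 0.0802).

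Versican rose at 0.5% O2 by a log2 fold change of 0.75 (SE 0.05, adjusted p = 2.23e-08) in proliferating cells, 0.88 (SE 0.07, adjusted p = 1.09e-05) in chondrocyte cultures and 2.51 (SE 0.16, adjusted p = 3.19e-06) in osteoblast cultures. The change with osteoblast differentiation was larger at 0.5% O2 by 1.81 (SE 0.17, adjusted p = 5e-07), and by 1.99 without osteoblast replicate 4. Between chondrocyte cultures and proliferating cells the same difference was 0.15 (SE 0.09, adjusted p = 0.177). Smooth muscle cultures went the other way, with 174, 192, 169 and 225 CPM at 21% O2 and 127, 118 and 136 CPM at 0.5% O2 (log2 fold change -0.52, SE 0.10, adjusted p = 0.000296), a group in which the smooth muscle markers were also low.

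Cd44 (chromosome 2, 102811141 to 102901665, minus strand), the cell surface receptor that binds hyaluronan, was highest in proliferating cells. Its levels there were 576, 592, 585 and 539 CPM at 21% O2 and 828, 794 and 837 CPM at 0.5% O2. At 21% O2 the chondrocyte cultures had 209, 175, 195 and 149.8 CPM, the osteoblast cultures 84.6, 82.8, 77.6 and 93.9 CPM and the smooth muscle cultures 99.4, 98.3, 95.3 and 102 CPM. All 12 lay below all 4 proliferating libraries, and Cd44 fell by 1.58, 2.70 and 2.48 on the log2 scale (SE 0.09, 0.07 and 0.05; adjusted p of at most 1.37e-08). At 0.5% O2 osteoblast cultures had 172, 171 and 187 CPM and smooth muscle cultures 336, 373 and 383 CPM, above their counterparts at 21% O2 without overlap. Cd44 rose at 0.5% O2 by a log2 fold change of 0.57 (SE 0.04, adjusted p = 7.48e-08) in proliferating cells, 1.06 (SE 0.09, adjusted p = 1.38e-05) in osteoblast and 1.94 (SE 0.08, adjusted p = 5.49e-12) in smooth muscle cultures. The last was 0.57 (adjusted p = 3.94e-06) by library size alone. Chondrocyte cultures, with 182, 166 and 159 CPM at 0.5% O2, overlapped those at 21% O2 (log2 fold change -0.12, SE 0.11, adjusted p = 0.465). The fall of Cd44 with differentiation was deeper at 0.5% O2 in chondrocyte cultures, by -0.68 (SE 0.12, adjusted p = 0.000171), and shallower in osteoblast cultures, by 0.53 (SE 0.10, adjusted p = 0.00037). Cd44 and versican thus rose together at low oxygen in proliferating and osteoblast cultures, while versican alone of the pair was called in chondrocyte cultures.

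Xylt1 (chromosome 7, 117380979 to 117673580, plus strand), which starts the chains, was lower at 0.5% than at 21% O2 in chondrocyte and smooth muscle cultures. Chondrocyte cultures had 67.7, 121, 114 and 99.4 CPM at 21% O2 and 20.4, 18.2 and 17.5 CPM at 0.5% O2. The lowest library at 21% O2 was more than 3 times the highest at 0.5% O2, and Xylt1 fell by 2.43 on the log2 scale (SE 0.20, adjusted p = 0.000121). Proliferating cells had 6.56, 5.48, 5.43 and 6.34 CPM at 21% O2 and 4.78, 5.68 and 4.35 CPM at 0.5% O2, so the rise with chondrocyte differentiation was 4.16 (SE 0.18) at 21% O2 and 1.92 (SE 0.13) at 0.5% O2. The difference between those rises was -2.21 (SE 0.26, adjusted p = 7.87e-06). Osteoblast cultures had 19.9, 18.3, 20.0 and 21.9 CPM at 21% O2 and 16.9, 18.2 and 13.8 CPM at 0.5% O2, which did not pass the test (log2 fold change -0.30, SE 0.12, adjusted p = 0.0601). Smooth muscle cultures had 26.0, 26.4, 25.1 and 24.7 CPM at 21% O2 and 7.72, 8.08 and 6.21 CPM at 0.5% O2, a fall of 1.74 on the log2 scale (adjusted p = 2.45e-08), or a log2 fold change of -3.10 by library size alone. At 0.5% O2 Xylt1 in chondrocyte cultures overlapped that in osteoblast cultures (log2 fold change 0.20, adjusted p = 0.199). The cartilage markers moved with this result: Col2a1 averaged 3511 CPM (1039 to 5877) in chondrocyte cultures at 21% O2 and 274 CPM (194 to 372) at 0.5% O2, and Acan 1964 and 622 CPM. Their part in the Xylt1 difference was not tested.

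Chsy1 (chromosome 7, 66109515 to 66173798, plus strand), a synthase that lengthens the chain, was higher in chondrocyte cultures than in proliferating cells at both oxygen levels. It had 192, 213, 209.9 and 169.9 CPM there at 21% O2 and 201, 254 and 229 CPM at 0.5% O2, beside 64.7 to 70.6 and 52.5 to 54.8 CPM in proliferating cells. The rise was 1.62 (SE 0.07, adjusted p = 1.72e-09) at 21% O2 and 2.09 (SE 0.08, adjusted p = 1.58e-10) at 0.5% O2, larger at low oxygen by 0.50 (SE 0.12, adjusted p = 0.00217). In smooth muscle cultures at 21% O2 it did not pass the test (log2 fold change 0.09, adjusted p = 0.162), but did so scaled by library size alone (0.17, adjusted p = 0.0145). Against osteoblast cultures Chsy1 was higher by 1.60 (adjusted p = 1.38e-05) at 21% O2 and by 2.41 (adjusted p = 2.62e-09) at 0.5% O2. Within chondrocyte cultures the oxygen levels overlapped (log2 fold change 0.21, adjusted p = 0.149; 0.30 and adjusted p = 0.0497 without replicate 1 at 0.5% O2), while Xylt1 in the same libraries differed by more than 5-fold. Low oxygen lowered Chsy1 in the other states: by 0.28 on the log2 scale in proliferating cells (adjusted p = 0.000668), 0.57 in osteoblast (adjusted p = 0.0147) and 1.69 in smooth muscle cultures (adjusted p = 2.09e-08). The osteoblast call was lost without either of 2 libraries at 0.5% O2, replicate 2 (adjusted p = 0.0535) and replicate 3 (adjusted p = 0.0705). Chsy1 shares 148 exon bases with Gm26827 on the other strand.

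Chst11 (chromosome 10, 82985498 to 83195900, plus strand), the 4-O-sulphotransferase, was high in chondrocyte and osteoblast cultures at both oxygen levels. It had 147, 172, 172 and 129 CPM in chondrocyte cultures and 108, 100.4, 108 and 179 CPM in osteoblast cultures at 21% O2. At 0.5% O2 the values were 144, 132 and 126 CPM and 138, 139.8 and 149 CPM. Proliferating cells had 4.55, 4.17, 4.71 and 8.54 CPM at 21% O2 and 6.08, 6.75 and 7.70 CPM at 0.5% O2. The rise with differentiation was 4.93 (SE 0.23) and 4.57 (SE 0.30) on the log2 scale at 21% O2 and 4.28 (SE 0.09) and 4.38 (SE 0.10) at 0.5% O2, with adjusted p of at most 4.74e-07. Smooth muscle cultures parted by oxygen. They had 42.8, 43.2, 42.5 and 48.5 CPM at 21% O2 and 4.65, 5.19 and 4.26 CPM at 0.5% O2, a fall of 9.03-fold (log2 fold change -3.17, SE 0.14, adjusted p = 1.61e-11) to a level that overlapped proliferating cells at 21% O2. Scaled by library size alone the log2 fold change was -4.54, and the 2.20 to 2.62 CPM of these libraries lay below the 4.78 to 10.2 CPM of proliferating cells. Within chondrocyte cultures Chst11 did not pass the test between the oxygen levels (log2 fold change -0.22, adjusted p = 0.151), but did so without replicate 4 at 21% O2 (-0.30, adjusted p = 0.0168). Within proliferating cells the log2 fold change was 0.39 (adjusted p = 0.168), and 0.67 (adjusted p = 0.00018) without replicate 4 at 21% O2.

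Chst3 (chromosome 10, 60181532 to 60219260, minus strand), the 6-O-sulphotransferase, moved over a smaller range. It had 33.9, 34.6, 31.0 and 33.9 CPM in chondrocyte cultures at 21% O2 and 17.9, 22.4 and 22.1 CPM at 0.5% O2, a fall of 0.69 on the log2 scale (SE 0.10, adjusted p = 0.000616). Osteoblast cultures had 14.1, 14.2, 14.1 and 16.9 CPM at 21% O2 and 14.4, 13.7 and 13.4 CPM at 0.5% O2, and proliferating cells 6.53 to 11.7 and 7.67 to 8.73 CPM. In smooth muscle cultures at 21% O2 Chst3 fell by 1.40 on the log2 scale against proliferating cells (SE 0.25, adjusted p = 0.000174) while Chst11 rose by 3.10. Per kilobase of exon, the log2 ratio of Chst11 to Chst3 was -0.44 ± 0.25 (SD, n = 4) in proliferating cells at 21% O2, 2.44 ± 0.24 in chondrocyte, 3.26 ± 0.26 in osteoblast and 4.13 ± 0.51 in smooth muscle cultures. At 0.5% O2 it was -0.02, 2.92, 3.60 and 1.14 (n = 3 each). The balance between the transcripts of these enzymes thus lay with Chst3 or near even in all proliferating libraries and with Chst11 in all differentiated ones.

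Papss2 (chromosome 19, 32595790 to 32667187, plus strand) had the widest span of the 10 genes, 328-fold between its highest and lowest group means. It had 0.511, 0.554, 0.497 and 0.875 CPM in proliferating cells and 187, 218, 234 and 160.2 CPM in chondrocyte cultures at 21% O2. At 0.5% O2 the values were 3.61, 3.38 and 3.70 CPM and 149, 135 and 138 CPM. Low oxygen thus raised Papss2 in proliferating cells (log2 fold change 2.62, SE 0.25, adjusted p = 6.84e-07) and lowered it in chondrocyte cultures (log2 fold change -0.51, SE 0.11, adjusted p = 0.00943), with no overlap in either. The rise with chondrocyte differentiation was 8.47 (SE 0.18, adjusted p = 1.71e-11) at 21% O2 and 5.30 (SE 0.08, adjusted p = 3.43e-14) at 0.5% O2, a difference of -3.14 (SE 0.23, adjusted p = 3.75e-08). The means behind that difference were 0.609 and 3.56 CPM in proliferating cells and 199.9 and 141 CPM in chondrocyte cultures. Over all 28 libraries in one fit the fall in chondrocyte cultures had an adjusted p of 0.372.

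Osteoblast cultures had 10.8, 11.3, 11.3 and 50.4 CPM of Papss2 at 21% O2 and 34.2, 32.9 and 31.5 CPM at 0.5% O2. Replicate 4 at 21% O2 was above the 3 libraries at 0.5% O2 and the other 3 were below them. The log2 fold change with low oxygen was 0.64 (SE 0.60, adjusted p = 0.405) with replicate 4 and 1.56 (SE 0.09, adjusted p = 8.38e-09) without it. Smooth muscle cultures had 11.1, 12.0, 10.2 and 11.7 CPM at 21% O2 and 4.05, 7.18 and 7.41 CPM at 0.5% O2 (log2 fold change -0.81, SE 0.21, adjusted p = 0.00285). In the fit over all 28 libraries that change had an adjusted p of 0.0917.

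**Figure D3:**
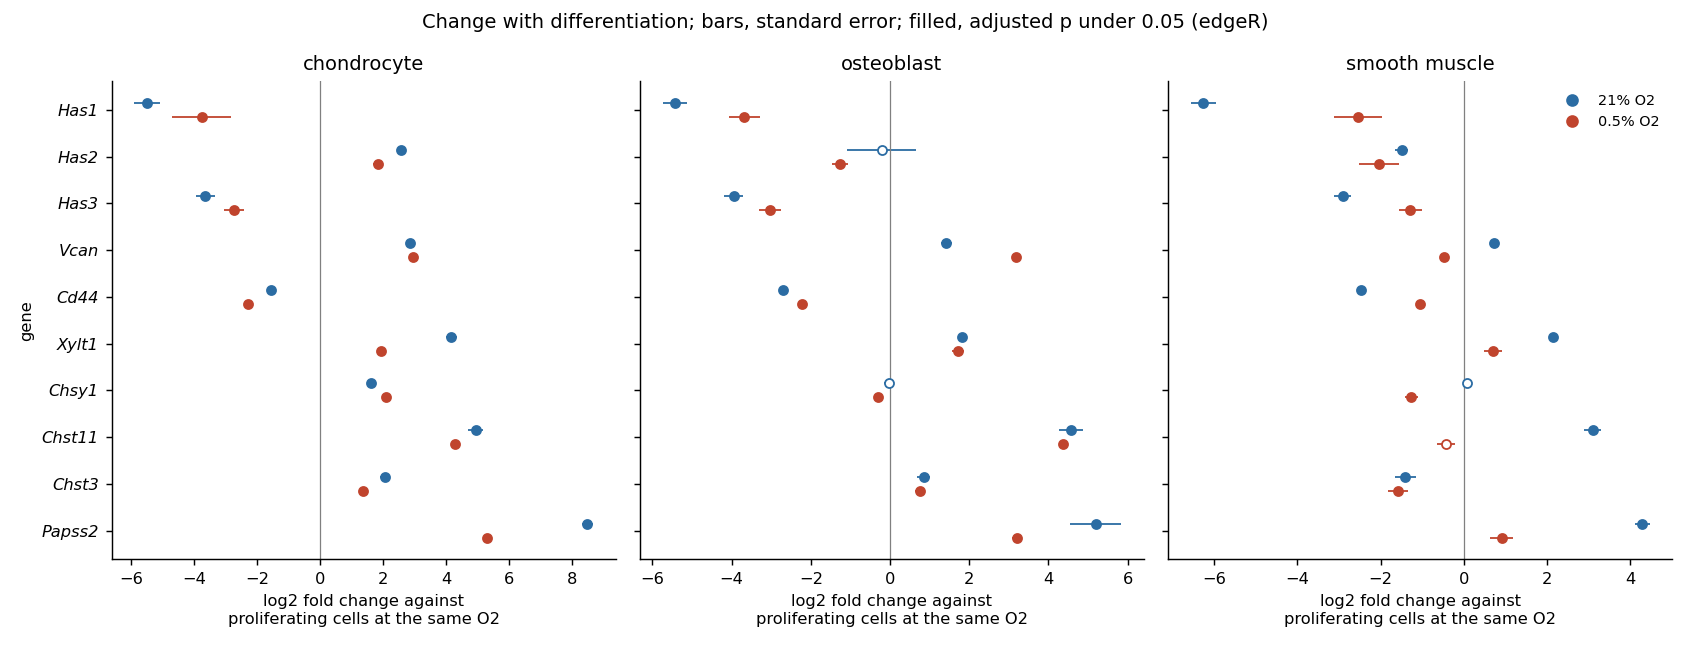
Log2 fold change of each gene in chondrocyte, osteoblast and smooth muscle cultures against proliferating cells at the same oxygen level (blue 21% O2, red 0.5% O2); bars are standard errors and filled points have an adjusted p under 0.05. Papss2 reaches 8.47 and Has1 -5.50 in chondrocyte cultures at 21% O2.

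Counted over the 10 genes, chondrocyte cultures at 21% O2 had 7 higher and 3 lower than proliferating cells, so all 10 were called, where 74.9% of the 14360 genes tested were called (37.7% higher and 37.2% lower). The median log2 fold change of the 10 was 2.30, beside 0.00 over all genes tested. Those that rose were Has2, Vcan, Xylt1, Chsy1, Chst11, Chst3 and Papss2, and those that fell were Has1, Has3 and Cd44. At 0.5% O2 the counts were again 7 higher and 3 lower of 10, where 69.5% of 14347 genes were called (34.9% higher and 34.6% lower), with a median of 1.87 beside -0.02. Of all calls, 50.3% and 50.2% were higher in these comparisons, and 34.7% and 31.8% when scaled by library size alone, which moved the median of all genes by -0.35 and -0.33. Osteoblast cultures at 21% O2 had 5 higher and 3 lower of 10, with 78.7% of 14434 genes called (40.9% higher and 37.8% lower). Without replicate 4 the calls over all genes went from 11359 to 12119, and all 10 were called there, 5 each way, Has2 and Chsy1 (log2 fold change -0.23, adjusted p = 0.00126) joining the genes that fell. At 0.5% O2 osteoblast cultures had 5 higher and 5 lower of 10, with 71.3% of 14338 genes called (36.2% higher and 35.1% lower). Of those calls 50.8% were higher, and 38.2% when scaled by library size alone.

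Smooth muscle cultures at 21% O2 had 4 higher and 5 lower of 10, where 79.7% of 14582 genes were called (40.8% higher and 38.9% lower). The 4 were Vcan, Xylt1, Chst11 and Papss2. At 0.5% O2 only Xylt1 and Papss2 were higher and 7 were lower of 10, with 70.0% of 14080 genes called (33.8% higher and 36.2% lower). Those 2 rises turned with the scaling: by library size alone the log2 fold changes were -0.58 for Xylt1 and -0.37 for Papss2, where TMM gave 0.70 and 0.91. By library size alone 0 of the 10 were higher and 9 lower, with Xylt1 (adjusted p = 0.0313) and Chst11 (-1.70, adjusted p = 1.69e-05; -0.42, adjusted p = 0.11, with TMM) among them, where 83.0% of all genes were called and 70.6% were lower. Of all calls 48.3% were higher with TMM, and 15.0% by library size alone. Both rises were also lost without single proliferating libraries at 0.5% O2: Xylt1 without replicate 1 (adjusted p = 0.0723) or replicate 3 (adjusted p = 0.0774), Papss2 without replicate 2 (adjusted p = 0.0543). Papss2 also lost its call in one fit over all 28 libraries (adjusted p = 0.203). Since most genes of the table changed with differentiation, the number of calls says little about these 10, and their sizes and directions carry the description. Comparisons at one oxygen level share their proliferating libraries.

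Chondrocyte and osteoblast cultures were also compared with each other. At 21% O2, 7 of the 9 genes tested were higher in chondrocyte cultures and 0 lower, where 59.7% of 14319 genes were called (28.6% higher and 31.1% lower). Against the labels, bone markers were also higher in the chondrocyte cultures there: Sp7 averaged 169.6 CPM beside 12.1, Alpl 265 beside 11.4, Ibsp 1173 beside 1.13 and Col1a1 38648 beside 6565, with Runx2 at 88.6 beside 63.5 and Bglap under 1 CPM in both. Their part in these differences was not tested. Of all calls 48.0% were higher, and 34.3% by library size alone. The largest differences were in Papss2 (log2 fold change 3.22, SE 0.55, adjusted p = 0.00108), Has2 (2.71, SE 0.93, adjusted p = 0.035) and Xylt1 (2.30, SE 0.17, adjusted p = 4.13e-06). Has2 is the weak call among them. Without osteoblast replicate 4 Has2 had the largest difference, 5.00 (SE 0.14, adjusted p = 1.42e-10), and Papss2 was at 4.14 (SE 0.14, adjusted p = 4.19e-09). Chst11 was then called too (0.53, adjusted p = 0.000436). In that fit 8 of 9 were higher and 0 lower, and 9736 genes were called in all, beside 8546 with replicate 4. Leaving out any other single library of the 2 groups gave Has2 log2 fold changes between 2.36 and 2.80 and ended the call (adjusted p from 0.0513 to 0.0713). At 0.5% O2, 4 of the 9 were higher in chondrocyte cultures (Has2, Chsy1, Chst3 and Papss2) and Vcan was lower, with 57.6% of 14116 genes called (28.6% higher and 29.0% lower).

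**Figure D4:**
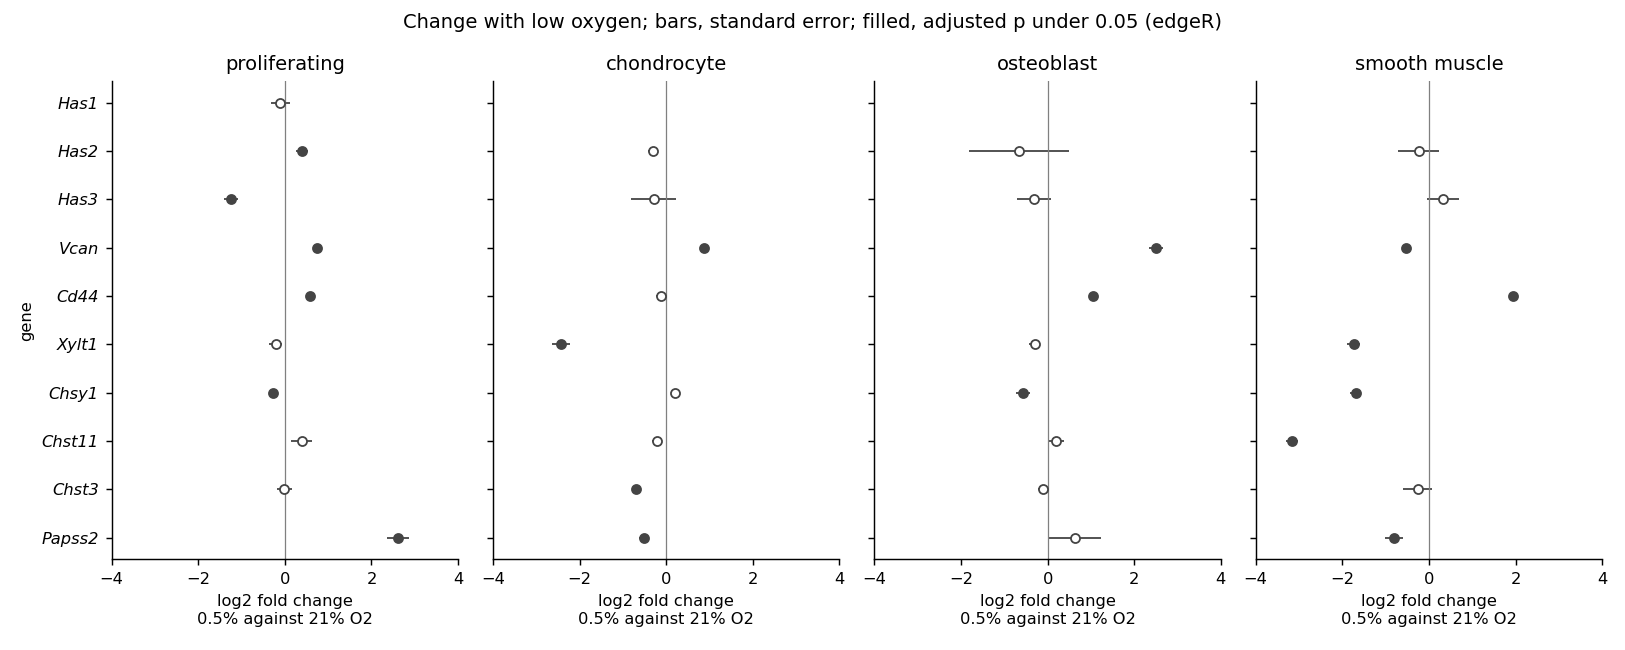
Log2 fold change of each gene at 0.5% against 21% O2 within each culture state; bars are standard errors, filled points have an adjusted p under 0.05, and genes too low to test have no point. Vcan is to the right of 0 in 3 states and at -0.52 in smooth muscle cultures, and Xylt1 is at -2.43 in chondrocyte cultures.

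Low oxygen in proliferating cells raised Has2, Vcan, Cd44 and Papss2 and lowered Has3 and Chsy1, 6 of 10, where 65.4% of 14156 genes were called (33.1% higher and 32.3% lower). The Has2 rise was small (log2 fold change 0.40, SE 0.14, adjusted p = 0.0242), and its libraries overlapped. Without replicate 3 at 0.5% O2 the adjusted p was 0.19, and without replicate 2 or 3 at 21% O2 it was 0.062 and 0.0537. In one fit over all 28 libraries it was 0.703. Papss2 was the one gene of the 10 that rose there by a log2 fold change of at least 1, which 11.6% of the genes tested did, and Has3 the one that fell by as much, as did 6.93%. Chondrocyte cultures had 1 higher (Vcan) and 3 lower (Xylt1, Chst3 and Papss2) of 9 tested, with 22.2% of 14205 genes called (10.4% higher and 11.8% lower). Xylt1 alone of the 9 fell by at least 1 on the log2 scale, as did 3.91% of the genes tested. Osteoblast cultures had 2 higher (Vcan and Cd44) and 1 lower (Chsy1) of 9, with 54.3% of 14533 genes called (27.0% higher and 27.3% lower), and 5 higher and 1 lower of 9 without replicate 4 at 21% O2 (9376 genes called in all, 7890 with it), Has2, Chst11 (log2 fold change 0.43, adjusted p = 4.35e-05) and Papss2 being the additions. Smooth muscle cultures had Cd44 higher and 5 genes lower of 9 (Vcan, Xylt1, Chsy1, Chst11 and Papss2), with 75.6% of 14914 genes called (35.4% higher and 40.2% lower). Scaled by library size alone, the higher share of all calls went from 46.9% to 31.8% in chondrocyte, from 49.6% to 36.9% in osteoblast and from 46.8% to 15.6% in smooth muscle cultures.

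The direction of the oxygen effect in smooth muscle cultures was the same under the other 2 scalings for the 6 genes called, but their sizes and the count were not. By library size alone all 9 genes tested were called, 8 lower and Cd44 higher, where 86.0% of all genes were called and 72.6% were lower, so the counts follow the table. Besides the values already given, Vcan was then at -1.89, Chsy1 at -3.05 and Papss2 at -2.18. Chst3 (log2 fold change -0.26, adjusted p = 0.498) was at -1.63 (adjusted p = 0.000443), and Has3 (0.32, adjusted p = 0.436) turned to -1.05 (adjusted p = 0.0148). Without mitochondrial genes and Rn7sk the same 9 calls were made (84.3% of all genes called, 68.9% lower), with Chst3 at -1.43 (adjusted p = 0.00129) and Has3 at -0.84 (adjusted p = 0.0428). Tests of whether the change with differentiation differed between oxygen levels called 6 of 10 genes for chondrocyte cultures (1 larger at 0.5% O2 and 5 smaller), where 43.5% of 15310 genes were called (21.6% larger and 21.9% smaller). They called 4 of 10 for osteoblast cultures, all larger, where 54.2% of 15486 genes were called (28.9% larger and 25.3% smaller), and 8 of 10 for smooth muscle cultures (3 larger and 5 smaller), where 70.4% of 15640 genes were called (34.9% larger and 35.5% smaller). Of the calls for smooth muscle cultures 49.6% were larger, and 16.6% by library size alone. Here larger and smaller refer to the signed log2 value, so that a shallower fall counts as larger. Has1 is among the calls for osteoblast and smooth muscle cultures, though it was too low to be tested between the oxygen levels there.

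Upstream sequences from RefSeq (GRCm38.p6) were found for 7 of the 10 genes, with 8 start sites. They are shown for the 3 of those genes that low oxygen raised in proliferating cells, Papss2, Cd44 and Vcan, as the 250 bases before the start site, read 5′ to 3′ on the strand of the gene. Capitals mark ACGTG or GCGTG, core letters of the hypoxia response element, searched on both strands, where they read CACGT and CACGC in reverse.
Papss2, first start site, chr19:32595465-32595714, plus strand: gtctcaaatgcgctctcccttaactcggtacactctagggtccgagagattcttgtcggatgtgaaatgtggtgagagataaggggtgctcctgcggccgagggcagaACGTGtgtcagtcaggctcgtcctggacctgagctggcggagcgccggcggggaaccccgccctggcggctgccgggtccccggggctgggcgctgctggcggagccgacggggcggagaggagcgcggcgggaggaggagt
Cd44, chr2:102901666-102901915, minus strand: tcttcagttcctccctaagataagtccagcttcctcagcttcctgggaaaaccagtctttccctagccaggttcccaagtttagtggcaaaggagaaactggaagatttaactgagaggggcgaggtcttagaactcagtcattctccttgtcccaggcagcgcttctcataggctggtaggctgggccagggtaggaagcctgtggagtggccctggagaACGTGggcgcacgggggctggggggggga
Vcan, chr13:89742513-89742762, minus strand: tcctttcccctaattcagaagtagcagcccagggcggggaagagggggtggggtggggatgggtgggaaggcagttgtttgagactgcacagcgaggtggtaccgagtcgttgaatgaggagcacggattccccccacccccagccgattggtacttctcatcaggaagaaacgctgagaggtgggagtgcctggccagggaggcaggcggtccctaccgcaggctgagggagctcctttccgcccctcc

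Papss2 and Cd44 hold 1 match each, with the first base at positions -142 and -29 from the start, and Vcan holds none in this window although its transcript rose at 0.5% O2 in 3 states. A second Papss2 start site also holds none. Chsy1, which fell at low oxygen in 3 states, holds 6 matches and Chst11 holds 2, while Has1 and Chst3 hold none. One stretch of Chsy1 counts on both strands, where CACGTG holds ACGTG and its reverse. In all, 4 of the 8 upstream windows hold at least 1 match, and so do 38.6% of the 32851 windows of the table. The match describes letters and nothing about binding. The sequences of Has2, Has3 and Xylt1 are not used here.

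Of 83 other genes of the pathway, in 9 lists, 60 of the 69 tested were called in chondrocyte cultures against proliferating cells at 21% O2, 48 higher and 12 lower, with a median log2 fold change of 0.95 beside 0.00 over all genes. Of all genes tested 74.9% were called there, 37.7% higher and 37.2% lower, which is also the background of the counts per list that follow. Link proteins and other hyaluronan binders, a list that shares Acan and Hapln1 with the cartilage markers, were 5 higher and 1 lower of 6. Hapln1, the link protein that fixes proteoglycans to hyaluronan, averaged 0.0923 CPM in proliferating cells and 619 ± 269 CPM (SD, n = 4) in chondrocyte cultures (log2 fold change 12.99, SE 0.65, adjusted p = 3.65e-07), and Hmmr, a hyaluronan-binding protein of the mitotic spindle, fell by 1.74 (adjusted p = 1.4e-05). Linkage enzymes were 5 higher and 0 lower of 6, with Pxylp1, the xylose phosphatase, up by 2.61 (adjusted p = 1.06e-09). Chain enzymes were 2 higher and 1 lower of 4. Chpf2, a chain polymerisation partner, rose by 2.05 (adjusted p = 1.03e-09), and Csgalnact1, which adds the first N-acetylgalactosamine of a chain, fell by 2.62 (adjusted p = 2.03e-08). The chain starter Xylt1 and the chain enzyme Chsy1 thus rose in the same cultures in which Csgalnact1 fell.

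Sulphation and epimerisation enzymes were 5 higher and 1 lower of 7 in that comparison. Ust, the uronyl 2-O-sulphotransferase, rose by 3.42 (adjusted p = 8.22e-11), and Chst15 fell by 1.16 (adjusted p = 2.69e-05). Sulphate supply was 4 higher and 2 lower of 6. Slc26a2, the sulphate transporter, went from 16.3 to 113 CPM (log2 fold change 2.86, adjusted p = 6.07e-10), and Papss1, the paralogue of Papss2, fell by 0.94 (adjusted p = 6.52e-08). The 2 PAPS synthases thus moved in opposite directions. Precursor sugar genes were 6 higher and 0 lower of 10, and Gfpt2, which feeds amino sugar synthesis, averaged 0.00675 CPM in proliferating cells and 4.16 CPM in chondrocyte cultures. Breakdown genes were 6 higher and 2 lower of 9, among them Hexa up by 2.98 (adjusted p = 2.57e-12) and the hyaluronidase Hyal2 down by 0.80 (adjusted p = 4.23e-06). Versican-cleaving proteases were 3 higher and 1 lower of 4, with Adamts4 up by 4.72 (adjusted p = 1.68e-07) and Adamts9 down by 1.34 (adjusted p = 1.95e-06). Heparan sulphate genes were 12 higher and 4 lower of 17, with Ndst3 down by 3.40 (adjusted p = 2.88e-08) and Extl1 at 0 counts in proliferating cells and 1.04 CPM in chondrocyte cultures.

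Osteoblast cultures at 21% O2 had 62 of 72 of these genes called, 50 higher and 12 lower, and smooth muscle cultures 59 of 68, 45 higher and 14 lower. Over all genes 78.7% (40.9% higher) and 79.7% (40.8% higher) were called, so the total called was not far from that of the table. All 5 versican-cleaving proteases tested were higher in both. Adamts15, the largest change of its list, rose by 5.77 (adjusted p = 9.22e-08) and 4.82 (adjusted p = 2.61e-08). Sulphation and epimerisation enzymes were 6 higher and 1 lower of 7 in both, led by Ust (3.73, adjusted p = 4.45e-09, and 2.73, adjusted p = 2.15e-12), with Chst7, another 6-O-sulphotransferase, lower by 1.41 and 1.55 on the log2 scale. Chain enzymes were 3 higher and 1 lower of 4 in osteoblast and 2 higher and 1 lower of 4 in smooth muscle cultures, led by Chpf (2.47, adjusted p = 8.84e-09, and 1.33, adjusted p = 3.03e-10) and with Csgalnact1 lower in both (-1.15 and -0.71). Precursor sugar genes were split, 2 higher and 4 lower of 10 in osteoblast and 3 higher and 6 lower of 9 in smooth muscle cultures.

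Hyaluronan binders were 4 higher and 1 lower of 8 in osteoblast and 3 higher and 2 lower of 7 in smooth muscle cultures, Hmmr being the largest fall (-4.88, adjusted p = 1.34e-08, and -2.24, adjusted p = 9.94e-13). Breakdown genes were 7 higher and 1 lower of 9 in osteoblast cultures and 8 higher and 0 lower of 9 in smooth muscle cultures, Hexa being the largest rise in both (2.84 and 3.20). Cemip, which is needed for hyaluronan breakdown in fibroblasts, averaged 51.6 CPM in proliferating cells, 124 CPM in osteoblast and 426 ± 12.3 CPM (SD, n = 4) in smooth muscle cultures at 21% O2. Cemip was chosen here after its values were seen. Linkage enzymes were 5 higher and 0 lower of 6 in both states and sulphate supply 4 higher and 2 lower of 6 in both, while heparan sulphate genes were 14 higher and 2 lower of 17 in osteoblast and 9 higher and 2 lower of 15 in smooth muscle cultures. Ndst4, of the heparan sulphate list, had no counts in proliferating cells and 8.26 ± 6.86 CPM (SD, n = 4) in osteoblast cultures at 21% O2.

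Low oxygen in proliferating cells changed 44 of 64 of the other pathway genes, 29 higher and 15 lower, with a median log2 fold change of 0.03. Of all genes 65.4% were called, 33.1% higher and 32.3% lower, so the total is near the background, while more of the pathway genes called were higher than lower. Precursor sugars were 5 higher and 1 lower of 9, led by Ugdh, which makes the UDP-glucuronic acid that hyaluronan and chondroitin chains both use: it averaged 208 ± 18.1 CPM (SD, n = 4) at 21% O2 and 516 ± 18.8 CPM (SD, n = 3) at 0.5% O2 (log2 fold change 1.37, SE 0.06, adjusted p = 3e-10). Chain enzymes were 3 higher and 1 lower of 4, the one that fell being Chpf (-1.31, adjusted p = 1.77e-06). The versican-cleaving proteases were 4 higher and 0 lower of 4, with Adamts1 up by 1.43 (adjusted p = 3.61e-11), and the hyaluronidase Hyal1 rose from 1.43 to 15.0 CPM (log2 fold change 3.44, SE 0.15, adjusted p = 3.85e-10), while Cemip fell by 1.63 (adjusted p = 0.000252). Sulphate supply was 1 higher and 2 lower of 6, with Bpnt1, which clears the spent donor, lower by 1.72 (adjusted p = 1.77e-08) and Papss1 higher by 0.76 (adjusted p = 4.32e-08), so that both PAPS synthases rose. Linkage enzymes were 1 higher and 2 lower of 6, sulphation and epimerisation enzymes 4 higher and 1 lower of 7, hyaluronan binders 2 higher and 1 lower of 5, breakdown genes 4 higher and 3 lower of 9, and heparan sulphate genes 5 higher and 4 lower of 14.

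In chondrocyte cultures low oxygen changed 25 of 72 of these genes, 10 higher and 15 lower, where 22.2% of all genes were called (10.4% higher and 11.8% lower). Hapln1 fell from 619 to 69.7 CPM (log2 fold change -3.15, SE 0.51, adjusted p = 0.00893), in the libraries in which Col2a1 and Acan were also lower. None of the 5 chain enzymes was called, and sulphate supply was 0 higher and 3 lower of 6, with Slc26a2 down by 0.53 (adjusted p = 0.0219) beside the fall of Papss2. The Slc26a2 call was lost without replicate 3 at 21% O2 (adjusted p = 0.0569) or at 0.5% O2 (adjusted p = 0.0561). Ugdh (0.52, adjusted p = 0.0141), Hyal1 (1.68, adjusted p = 0.000106) and Adamts5 (1.15, adjusted p = 6.03e-05) rose. Of 73 genes tested in osteoblast cultures 11 were higher and 28 lower, where 54.3% of all genes were called (27.0% higher and 27.3% lower), and without replicate 4 at 21% O2 17 of 72 were higher and 33 lower, in a fit that called 9376 genes in place of 7890. Ugdh (1.12, adjusted p = 1.41e-05), Hyal1 (2.54, adjusted p = 2.6e-05), Pxylp1 (1.93, adjusted p = 6.59e-07) and Adamts1 (1.74, adjusted p = 5.38e-06) rose, and Chpf (-1.70, adjusted p = 7.1e-07), Chst15 (-1.78, adjusted p = 0.000655) and Bpnt1 (-0.95, adjusted p = 0.000353) fell. Adamts1 reached 6337 ± 386 CPM (SD, n = 3) in osteoblast cultures at 0.5% O2, the group in which versican itself was highest. Ugdh and Hyal1 were called higher at 0.5% O2 in each of these 3 states.

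In smooth muscle cultures at 0.5% O2, 8 of 68 were higher and 50 lower than at 21% O2, where 35.4% of all genes were higher and 40.2% lower. Against proliferating cells at 0.5% O2 7 of 63 were higher and 43 lower, beside 33.8% and 36.2% of all genes. By library size alone 13.4% of all genes were higher and 72.6% lower in the first comparison, and 12.4% and 70.6% in the second. Counts of the pathway genes under that scaling are not given here. The counts against proliferating cells at 0.5% O2 were 46 higher and 14 lower of 68 in chondrocyte (34.9% and 34.6% of all genes) and 39 higher and 19 lower of 70 in osteoblast cultures (36.2% and 35.1%). Between chondrocyte and osteoblast cultures 27 of 74 were higher and 23 lower at 21% O2 (28.6% and 31.1% of all genes), and 37 of 71 higher and 20 lower at 0.5% O2 (28.6% and 29.0%). The test of the difference between oxygen levels gave 12 larger and 24 smaller of 73 for chondrocyte cultures (21.6% and 21.9% of all genes). It gave 15 larger and 35 smaller of 73 for osteoblast (28.9% and 25.3%) and 5 larger and 52 smaller of 69 for smooth muscle cultures (34.9% and 35.5%). By library size alone the shares of all genes for smooth muscle cultures were 12.9% and 64.7%.

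**Figure D5:**
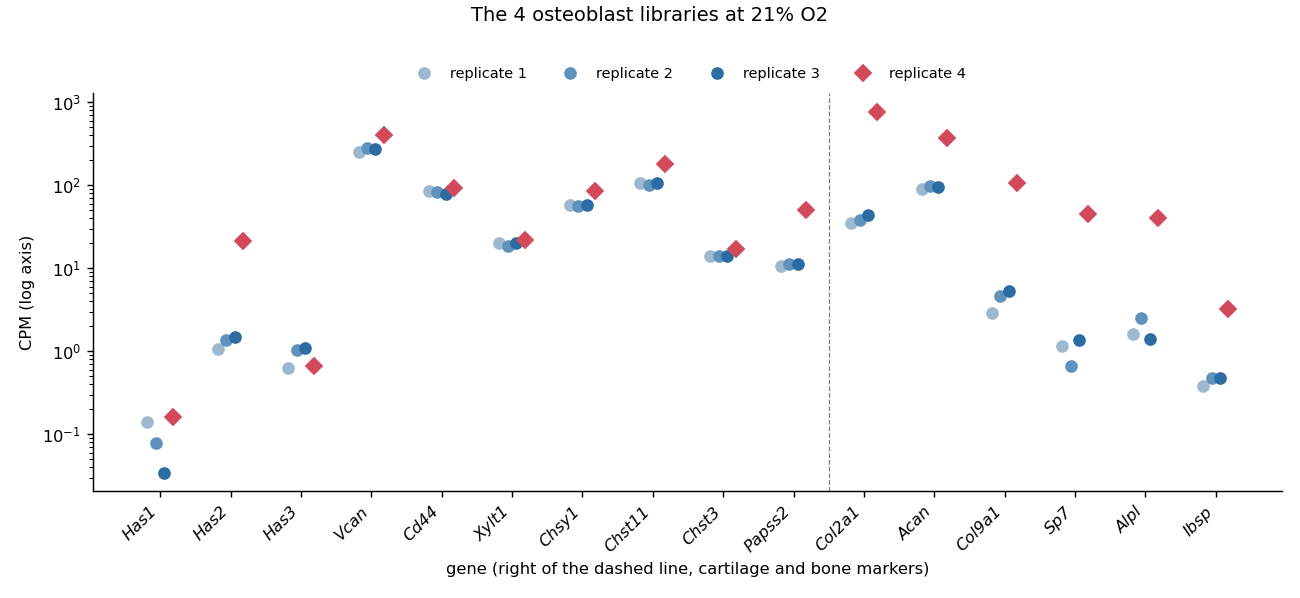
Level (CPM, log axis) of the 10 genes and, right of the dashed line, of 3 cartilage and 3 bone markers in the 4 osteoblast libraries at 21% O2; diamonds are replicate 4. Has2 is at 21.2 CPM in replicate 4 and at 1.05 to 1.49 in the others, and Col2a1 at 775 and 35.6 to 43.6 CPM.

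The osteoblast library that stands apart did so for most cartilage and bone markers as well as for 5 of the 10 genes. In replicate 4 at 21% O2 Col2a1 had 775 CPM where the others had 35.6 to 43.6, Acan 370.2 where they had 89.7 to 98.2, Col9a1 106 where they had 2.90 to 5.29, Sp7 45.4 where they had 0.670 to 1.36, Alpl 40.0 where they had 1.39 to 2.52 and Ibsp 3.20 where they had 0.384 to 0.475. Of the bone list, Col1a1 was at 9278 CPM beside 5656 to 5669, and Runx2 was lowest in replicate 4, with 57.1 CPM beside 59.6 to 69.1. The smooth muscle markers summed to 4682 CPM there beside 3064 to 3216, and mt-Rnr1, mt-Rnr2 and Rn7sk together to 268 beside 445 to 481. What these differences add was not tested. Has2, Chsy1, Chst11, Chst3 and Papss2 were each apart from the other 3 libraries in replicate 4, Chst3 by the least (16.9 CPM beside 14.1 to 14.2), and Vcan was highest there too, with 407 CPM beside 254 to 283. Has3 lay within the range of the other libraries. Xylt1 and Cd44 were also highest there, with 21.9 CPM beside 18.3 to 20.0 and 93.9 CPM beside 77.6 to 84.6. In the other 3 libraries of this group, labelled osteoblast, Sp7, Alpl, Ibsp and Bglap were thus low or near 0, while Runx2 and Col1a1 were not.

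Over the 28 libraries, genes whose log2 level was most like that of a member were sought among 10738 genes, as a description across libraries that share their groups. Chst11 was closest to Lrrc75b (Pearson r 0.994), Thbs1 (0.988) and Slc35f5 (0.987). Vcan was closest to Hspb7 (0.976), Lamb3 (0.971) and F3 (0.968), and Vamp5 (0.970) and Itga11 (0.967) were among the genes closest to Papss2. Chsy1 was closest to Ckap4 (0.965), Fzd6 (0.959) and the sulphate transporter Slc26a2 (0.957). Xylt1 was closest to Rtl3 (0.953), Map3k5 (0.940) and Frzb (0.917), and Chst3 to Slc39a14 (0.949), Pcolce2 (0.937) and Zbtb7c (0.936). Cd44 and Has3 were closest to Ruvbl2 (0.976) and Mrps22 (0.968), and Has2 had the lowest best value, 0.902 with Cdr2l. Among the members themselves, Papss2 and Chst11 had r of 0.85, Has2 and Chsy1 0.84, and Has3 and Chst11 -0.84.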

How the data were processed

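RNA sequencing of polyA RNA from 28 libraries in 8 groups was analysed. The raw counts per gene for 54429 Ensembl identifiers were deposited by the authors, with a stranded kit per the labels' protocols. The submitters' processing notes name HISAT2 2.0.5, StringTie 1.3.3b, featureCounts 1.5.0-p3 and the mm10 build, and the annotation and strand setting are not given in the sources used here. The log2 fold changes and p-values of the authors' deposited tables were used only for gene names and a comparison of sign: of 75 called member values, 75 had the same sign there. Symbols came from those tables for 20019 identifiers and from GENCODE M21 for 34311 more, and 99.8% of identifiers were in that annotation. The 70 columns of per-sample normalised values were not used.

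Genes were filtered with filterByExpr (at least 10 counts) and fitted per comparison with edgeR 4.0.16 (R 4.3.3), using TMM factors and the robust quasi-likelihood F-test. P-values were adjusted by Benjamini-Hochberg over all genes tested and called under 0.05, and the SE is the log2 fold change divided by the root of F. There were 12 pairwise comparisons and 3 tests of the difference between oxygen levels (change at 0.5% O2 minus change at 21% O2). Library totals ran from 19869271 to 64693346 counts, and low genes such as Has1 carry the largest counting error. CPM per kb used the union of exons in GENCODE M21. The fits were tested on simulated data. Alternatives were DESeq2 1.42.0, limma-voom 3.58.1, all 28 libraries in one fit, no filter, 2 other scalings, a replicate block and leaving out each library. Within a list, the gene with the largest called change in each direction was named among genes with a mean of at least 10 counts in a group, for 6 comparisons. Genes at 0 to 3 counts in proliferating cells are given by level only. Counts per list are given for differentiated against proliferating cells at 21% O2 and for low oxygen in proliferating cells. For low oxygen in chondrocyte cultures they are given for chain enzymes and sulphate supply. Elsewhere only totals over the lists are given. Likeness is Pearson r of log2(CPM + 0.5). Some genes that these rules name are not reported here. The members and the lists were chosen with earlier results of these data known. No 2 replicates agreed within sampling noise (lowest chi-square per degree of freedom 2.89).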

Additional observations from a re-analysis of the deposited data

Results flagged for a closer look

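Of 40 gene and group combinations with 4 libraries, 9 had 1 library far from the other 3, where chance gives about 1 in 20. Osteoblast replicate 4 at 21% O2 accounts for 5, all of them high: Has2 at 21.2 CPM, Chsy1 at 84.8, Chst11 at 179, Chst3 at 16.9 and Papss2 at 50.4 CPM. Proliferating replicate 4 at 21% O2 accounts for 3, with Has3 low at 9.45 CPM (14.7 to 15.6 in the others), Chst11 high at 8.54 CPM (4.17 to 4.71) and Papss2 high at 0.875 CPM (0.497 to 0.554). Smooth muscle replicate 4 at 21% O2 had Chst11 at 48.5 CPM beside 42.5 to 43.2. All 9 were thus replicate 4, a number that the groups at 0.5% O2 do not have. Over all genes, the chi-square per degree of freedom was 18.3 to 22.3 with proliferating replicate 4 and 5.18 to 5.83 among the others. It was 14 to 20.2 beside 6.1 to 7.94 in smooth muscle cultures, and 91.1 to 97.1 beside 2.89 to 3.88 in osteoblast cultures. The cause was not tested.

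The change with differentiation differed between the oxygen levels for 18 of the 30 gene and state combinations, by edgeR's test of the difference itself (log2 change at 0.5% O2 minus that at 21% O2). Over all genes 43.5% were called for chondrocyte, 54.2% for osteoblast and 70.4% for smooth muscle cultures, so the number of these calls is near the background. For chondrocyte cultures these were Has2 at -0.70, Cd44 at -0.68, Xylt1 at -2.21, Chsy1 at 0.50, Chst3 at -0.66 and Papss2 at -3.14. In one fit over all 28 libraries Has2 (adjusted p = 0.629) and Chst3 (adjusted p = 0.0532) lost their calls. Chst11 was not among them (-0.62, adjusted p = 0.103), but passed without proliferating replicate 4 at 21% O2 (-0.89, adjusted p = 0.00036), and Has3 (0.95) passed without replicate 1 of either chondrocyte group (adjusted p = 0.0246 and 0.031).

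For osteoblast cultures they were Has1 at 1.78, Has3 at 0.96, Vcan at 1.81 and Cd44 at 0.53. Has1 rested there on 12 counts in all at 21% O2 and 28 at 0.5% O2. It passed the filter on low counts through the proliferating cells. In one fit over all 28 libraries Has1 (adjusted p = 0.146) and Has3 (adjusted p = 0.109) lost their calls. The Has1 call was lost without osteoblast replicate 3 at 0.5% O2 (adjusted p = 0.0965). The Has3 call was lost in 8 of the 14 fits that left out 1 library (adjusted p of at most 0.21), among them the one without osteoblast replicate 4 (0.87, adjusted p = 0.0586). Without that library Has2 (1.27, adjusted p = 0.000451) and Papss2 (-1.03, adjusted p = 0.000137) passed. Papss2 (-1.95, adjusted p = 0.0602) also passed without osteoblast replicate 1, 2 or 3 at 21% O2 (adjusted p from 0.0331 to 0.0365).

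For smooth muscle cultures they were Has1 at 3.67 (2.43, adjusted p = 0.0217, without smooth muscle replicate 1 at 0.5% O2), Has3 at 1.61, Vcan at -1.22, Cd44 at 1.41, Xylt1 at -1.48, Chsy1 at -1.37, Chst11 at -3.53 and Papss2 at -3.39. Scaled by library size alone, Has3 was at 0.27 (adjusted p = 0.471) and Cd44 at 0.07 (adjusted p = 0.403), while Has2 (-1.88, adjusted p = 0.00119) and Chst3 (-1.54, adjusted p = 0.000678; -0.21, adjusted p = 0.623, with TMM) passed, where 77.6% of all genes were called and 64.7% smaller. Has2 (-0.57, adjusted p = 0.283, with TMM) also passed without smooth muscle replicate 1 at 0.5% O2 (-1.55, adjusted p = 0.00332).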

How the results depend on the processing

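Of 145 member values tested, DESeq2 kept the direction and call of 139, limma-voom of 138, no filter of 141 and one fit over all 28 libraries of 134. DESeq2 gave no adjusted p for some values, which were left out. Scaling by library size alone kept 128 and without mitochondrial genes and Rn7sk 129. The 126 fits that left out 1 library kept 1155 member values, with 26 calls lost, 19 gained and 25 values reversed. Under library size alone, in smooth muscle cultures at 0.5% O2, Xylt1 and Papss2 reversed to -0.58 and -0.37 against proliferating cells (-0.38 and -0.16 without mitochondrial genes), and Has3 to -1.05 (-0.84) against 21% O2. With limma-voom, Chst3 between the oxygen levels in proliferating cells was 0.05, and Has2 in osteoblast cultures 0.53. The Has2 difference between oxygen levels for osteoblast cultures was 0.18. For that difference limma-voom called 2 members in place of 4, and 8490 of 15486 genes in all in place of 8394.

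Libraries left out one at a time gave these ranges where a value changed sign. Against proliferating cells at 21% O2, osteoblast Has2 ran from -2.54 to 0.15 and Chsy1 from -0.23 to 0.02. For 0.5% against 21% O2, proliferating Has1 ran from -0.28 to 0.16, proliferating Chst3 from -0.12 to 0.15 and chondrocyte Has3 from -0.72 to 0.13. In that comparison osteoblast Has2 ran from -1.01 to 1.62 and smooth muscle Has2 from -1.21 to 0.20. Of the members, 2 to 6 were called in osteoblast cultures, 3 with all libraries. Without osteoblast replicate 4 at 21% O2, 6 were called and 9376 genes in all, beside 7890 with it. For chondrocyte against osteoblast, Has3 ran from -0.16 to 0.48 at 21% O2 and from -0.12 to 0.68 at 0.5% O2. For the difference between oxygen levels, Has1 ran from -2.12 to 2.36 in chondrocyte cultures, and in osteoblast cultures Has2 from -1.37 to 1.27, Xylt1 from -0.12 to 0.08, Chst11 from -0.44 to 0.06 and Chst3 from -0.23 to 0.05. The causes were not tested.

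Replicate numbers were not used to pair the samples in the reported fits. Same-numbered deviations correlated from -0.177 to 0.0814, and in 0 of 12 comparisons were all over 0.1. In groups of 4 and 3 such values cannot show whether same-numbered libraries were handled together. The replicate block kept 135 member values. It called 6 genes between the oxygen levels in osteoblast cultures, with Has2 at 1.62. Over all genes it called 9269 of 14533 there, beside 7890 without the block. It gave 0.18 for Chst3 between the oxygen levels in proliferating cells and 0.15 for the Has2 difference in osteoblast cultures. Groups of 4 and 3 leave replicate 4 outside the block. Depth limits Has1, which had 0 to 27 counts in differentiated libraries.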
